A study of Mus musculus with 40 samples.

Results

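The genes described here are 29 markers of macrophages and of inflammatory signalling, chosen by name from the gene tables of a study of mouse hearts lacking Rbm20. All 29 were found in both tables, among 25462 genes listed for females and 24930 for males. They fall into 9 genes of macrophage identity and scavenging, 3 chains of complement C1q, 4 genes of cell recruitment, 3 leukocyte regulators or antigen presentation genes, 6 interferon response genes and 4 genes of NF-kappaB signalling and adhesion.

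RNA sequencing was done on left ventricles of 10-week-old mice in 4 groups of 5 mice: wildtype females, Rbm20 knockout females, wildtype males and Rbm20 knockout males. Rbm20 encodes a splicing regulator of heart muscle, and its mutation causes dilated cardiomyopathy in people. The labels name no strain and no allele for the knockout. Mouse names follow the labels: genotype (ko or wt), sex and number. Each mouse gave 2 libraries, apart from mouse ko_f_154, for which 1 was used. The library labels share a mouse number, so the mouse is the replicate. The libraries held 2351987 to 16973229 reads in genes. Rbm20 itself lay between 289 and 555 normalized reads in knockout females and between 1001 and 1342 in wildtype females, and between 221 and 308 in knockout males and between 795 and 894 in wildtype males.

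Macrophages live in the healthy heart, where they clear debris, and blood monocytes add to them after injury. Resident cells are marked by the scavenger receptors Mrc1 and Cd163 and make the C1q chains, whereas monocytes carry the chemokine receptor Ccr2 and follow its ligand Ccl2. Type I interferon acts through STAT and IRF proteins on interferon-stimulated response elements, while NF-kappaB is held in the cytoplasm by the inhibitor encoded by Nfkbia until a signal releases it. Irf8 encodes a transcription factor needed for monocytes and dendritic cells to form.

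The sequences below are shown because they carry the DNA motifs through which these signals are known to act. They come from RefSeq promoter windows on GRCm38.p6, which were found for 22 of the 29 genes, and only bases before the start site are printed, 5′ to 3′ on the strand of the gene. Capitals mark the motif hits. Among the genes of the list tested in males, Irf8 had the smallest p. Irf8 has a pair of gamma-activated sites (TTCNNNGAA), the motif of STAT proteins, in 1 of its 2 windows, at chr8:120736108-120736357 on the plus strand. This motif was found in 3 of the 22 genes, Irf8, Fcgr1 and Icam1. Fcgr1 and Icam1 did not pass the test described below in either sex. Nfkbia has a kappa B site (GGG, NN and TTTCC in 1 run, here on the reverse strand) at chr12:55492648-55492897 on the minus strand.
Irf8: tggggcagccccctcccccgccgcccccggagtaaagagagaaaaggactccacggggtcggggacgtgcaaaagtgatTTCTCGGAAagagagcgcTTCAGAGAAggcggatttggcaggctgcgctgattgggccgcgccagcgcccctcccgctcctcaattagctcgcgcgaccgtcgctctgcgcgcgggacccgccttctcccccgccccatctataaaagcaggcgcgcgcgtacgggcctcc
Nfkbia: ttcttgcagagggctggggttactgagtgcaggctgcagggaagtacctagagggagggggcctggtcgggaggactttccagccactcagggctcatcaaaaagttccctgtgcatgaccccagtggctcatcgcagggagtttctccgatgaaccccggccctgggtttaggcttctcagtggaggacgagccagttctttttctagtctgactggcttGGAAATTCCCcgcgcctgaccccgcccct

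Interferon-stimulated response elements (GAAA, NN and GAAA in 1 run) were found in 4 of the 22 genes, Ifit1, Ifit3, Isg15 and Cxcl10, and stretches with 10 bases on each side are given. They lie at chr19:34640775-34640823 (plus strand) for Ifit1, chr19:34583363-34583426 (plus strand) for Ifit3, chr4:156200865-156200906 (minus strand) for Isg15, where 3 hits overlap, and chr5:92349083-92349112 (minus strand) for Cxcl10.
Ifit1: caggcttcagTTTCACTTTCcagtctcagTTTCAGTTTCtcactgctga
Ifit3: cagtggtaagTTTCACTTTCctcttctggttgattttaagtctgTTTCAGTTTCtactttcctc
Isg15: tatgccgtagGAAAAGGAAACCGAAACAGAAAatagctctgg
Cxcl10: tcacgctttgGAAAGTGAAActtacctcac

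The PU.1 box (AGGAAGT), bound by the master factor of the myeloid lineage, was found in 7 of the 22 genes. Those of C1qb (chr4:136886237-136886263, minus strand) and Lyz2 (chr10:117282356-117282382, minus strand) are shown as examples from the C1q and lysozyme genes.
C1qb: aggacctgaaACTTCCTgagggcagca
Lyz2: atcggtaggaACTTCCTgttttgcaca

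Both strands were searched over the whole 300-base windows. Among all 32851 promoter windows, 3.44% held the interferon-stimulated response element, 8.3% the gamma-activated site, 1.63% the kappa B site and 9.35% the PU.1 box. The counts above are per gene. Of the 25 windows of the 22 genes, 4, 3, 1 and 8 held these motifs, with the overlapping windows of Ptprc counted apart. A match describes these letters and is not evidence of binding. None of the 4 motifs was found in the windows of Cx3cr1, Ifi44 or Lcn2.

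Of the 29 genes, 28 passed the filter on low values in each table (a mean of at least 10 normalized reads over the mice). Cxcl10, a chemokine induced by interferon, did not, with group means of 1.01 to 2.54. Knockouts were set against wildtypes of the same sex with limma on log2(value + 1), with Benjamini-Hochberg adjustment over all genes tested. In knockout females 2 of the 28 genes rose and none fell, where 5.28% of all 12781 genes tested rose and 5.51% fell. In knockout males 2 rose and 1 fell, where 7.6% of 12506 rose and 8.29% fell. These shares of the list are near or below the background. The median log2 change of the 28 genes was -0.03 in females and -0.06 in males, beside 0.00 over all genes in both.

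**Figure D1:**
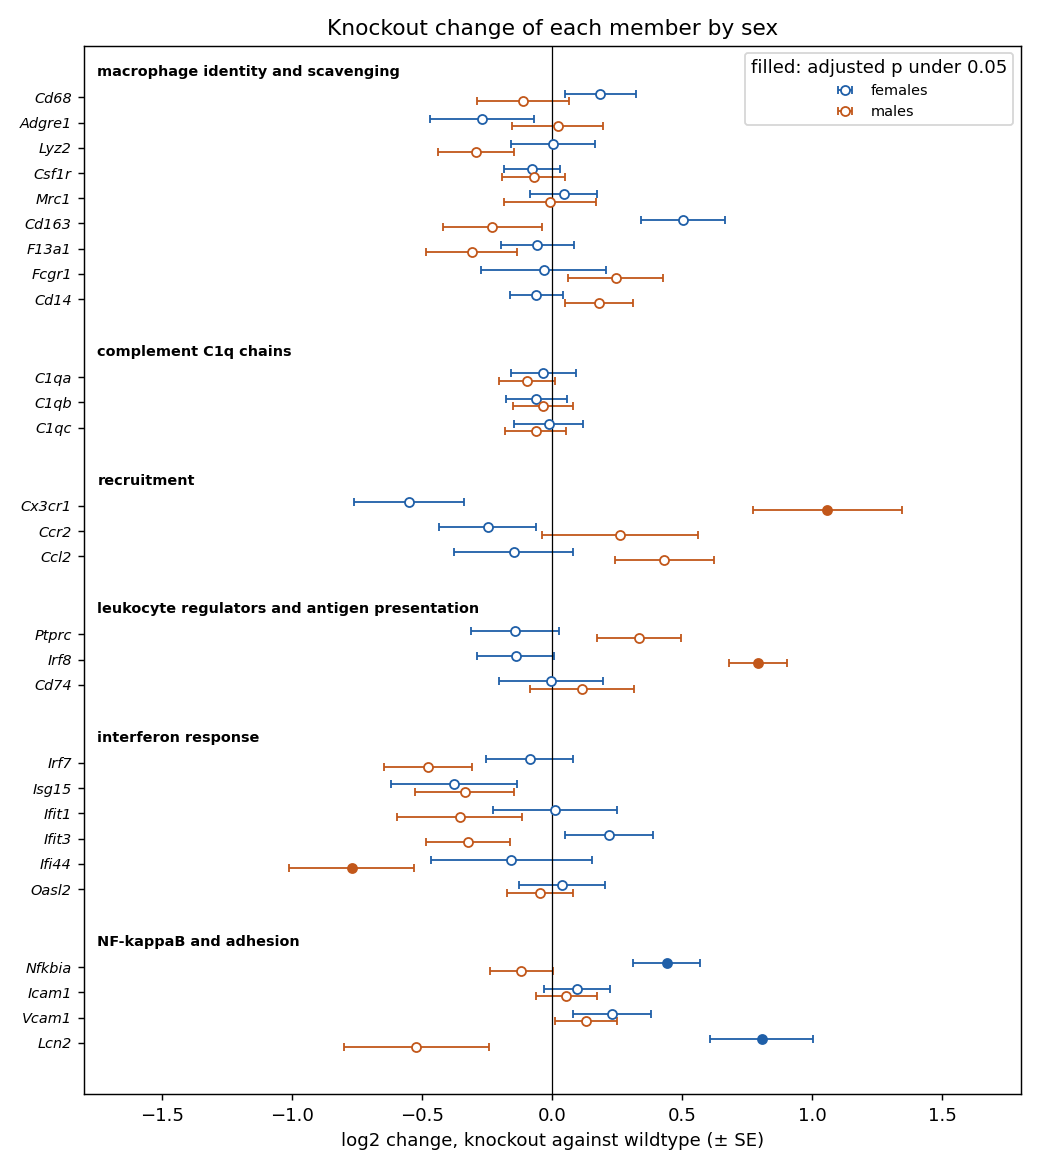
Log2 change of each tested gene, knockout against wildtype (x axis, points with SE), by role and sex. Filled points passed an adjusted p of 0.05: Nfkbia and Lcn2 in females, Cx3cr1, Irf8 and Ifi44 in males.

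The macrophage identity genes did not pass the test in either sex. They cover Cd68, a lysosomal protein, Adgre1, which encodes F4/80, Csf1r, the receptor for the growth factor on which macrophages depend, the lysozyme gene Lyz2, the scavenger receptors Mrc1 and Cd163, the transglutaminase subunit F13a1, the antibody receptor Fcgr1 and the endotoxin co-receptor Cd14. Their log2 changes ran from -0.27 to 0.50 in females and from -0.31 to 0.24 in males. Csf1r, for example, was at 409 ± 50.1 normalized reads in knockout and 432 ± 61.4 in wildtype females (SD, n = 5), and at 353 ± 43.5 and 374 ± 70.3 in males. Its log2 change was -0.08 ± 0.11 (SE) in females and -0.07 ± 0.12 in males.

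The 3 chains of C1q, the recognition part of the classical complement pathway, lay near 0. C1qa was at 558 ± 81.6 in knockout and 575 ± 100.4 in wildtype females, and at 504 ± 63.0 and 540 ± 80.6 in males (SD, n = 5). The log2 changes of all 3 chains were between -0.06 and -0.02 in females and between -0.10 and -0.04 in males, and the knockout and wildtype ranges overlapped for each. In bulk tissue, fewer cells of a type and less RNA per cell cannot be told apart. Per kilobase of exon, Lyz2 and C1qa had the highest levels of the 29 genes in wildtype females, 826 ± 222 and 553 ± 96.5 normalized reads per kilobase.

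**Figure D2:**
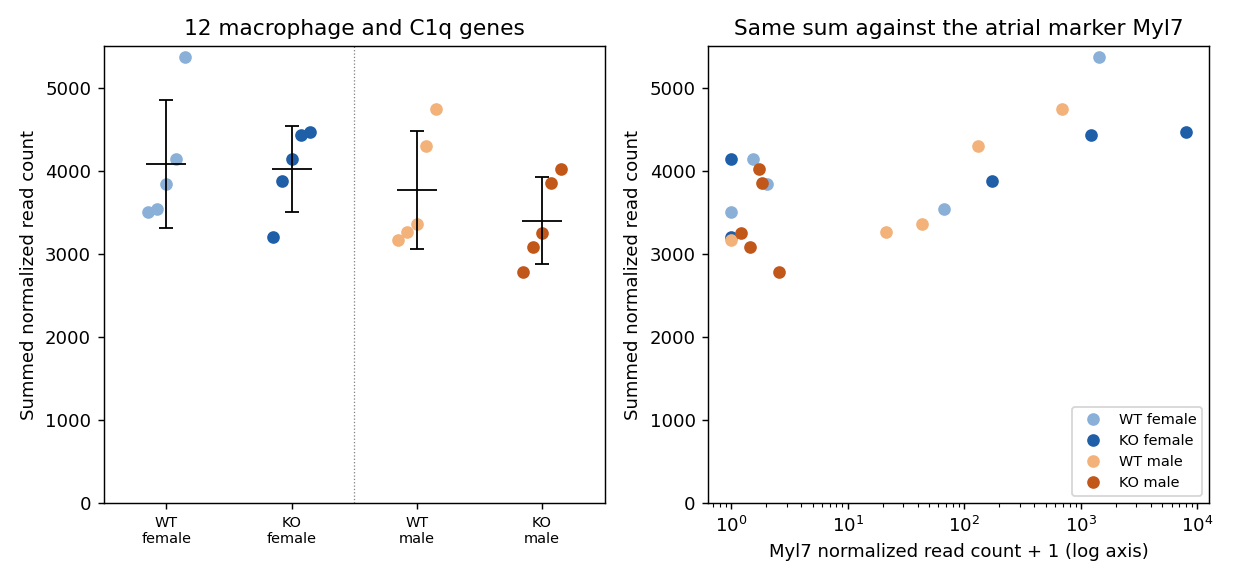
Left, summed normalized reads of the 12 macrophage identity and C1q genes in each mouse, with mean and SD (n = 5). Right, the same sum against the atrial marker Myl7 plus 1 on a log axis. Mouse wt_f_144 (5374) and mouse wt_m_112 (4744) have the highest sums of their sexes. The sexes were scaled in separate tables.

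Some mice had the highest or lowest value of their sex in many of the 28 genes tested. How often this held over all genes was not counted. Mouse wt_f_144 had the highest value of its sex in 14 of the 28 genes, and mouse wt_m_112 in 10. Mouse wt_m_112 was also the lowest male in 5, Irf8 and Cx3cr1 among them. Mouse ko_f_155 had the lowest value in 10 and mouse ko_m_97 in 9. Mouse ko_f_151 was highest in 0 and lowest in 4, and mouse ko_f_154 highest in 5 and lowest in 0. Mice wt_f_144 and wt_m_112 also held the atrial light chain Myl7 at 1416 and 692 normalized reads, as mice ko_f_151 and ko_f_154 did at 8051 and 1223, whereas knockout males reached at most 1.58. The atrial markers summed to 25.6 to 24340 in the female knockouts, 13.6 to 3775 in the female wildtypes, 15.1 to 34.2 in the male knockouts and 9.85 to 2301 in the male wildtypes. The part of atrial tissue in the results was not tested beyond leaving out these 4 mice.

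Cd163, the haemoglobin scavenger receptor, came nearest to the threshold among the macrophage genes. Wildtype females held 55.2, 73.4, 74.7, 81.6 and 87.4 normalized reads, and knockout females 70.2, 105, 109, 118 and 131. Mouse ko_f_155 alone lay within the wildtype range. The log2 change was 0.50 ± 0.16 with a limma adjusted p of 0.0661. The adjusted p was 0.00928 without mouse ko_f_155 and 0.0453 without mouse wt_f_144. Of the 10 fits that each left out 1 mouse, only these 2 passed, and the highest adjusted p was 0.155. The limma adjusted p was 0.1495 without the females with Myl7 at 500 or more, and 0.0853 with no filter on low values. It was 0.0542 with edgeR and 0.0273 with DESeq2 on the recovered reads, and 0.00116 in the authors' deposited table. In males the log2 change was -0.23 ± 0.19, with an adjusted p of 0.467.

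**Figure D3:**
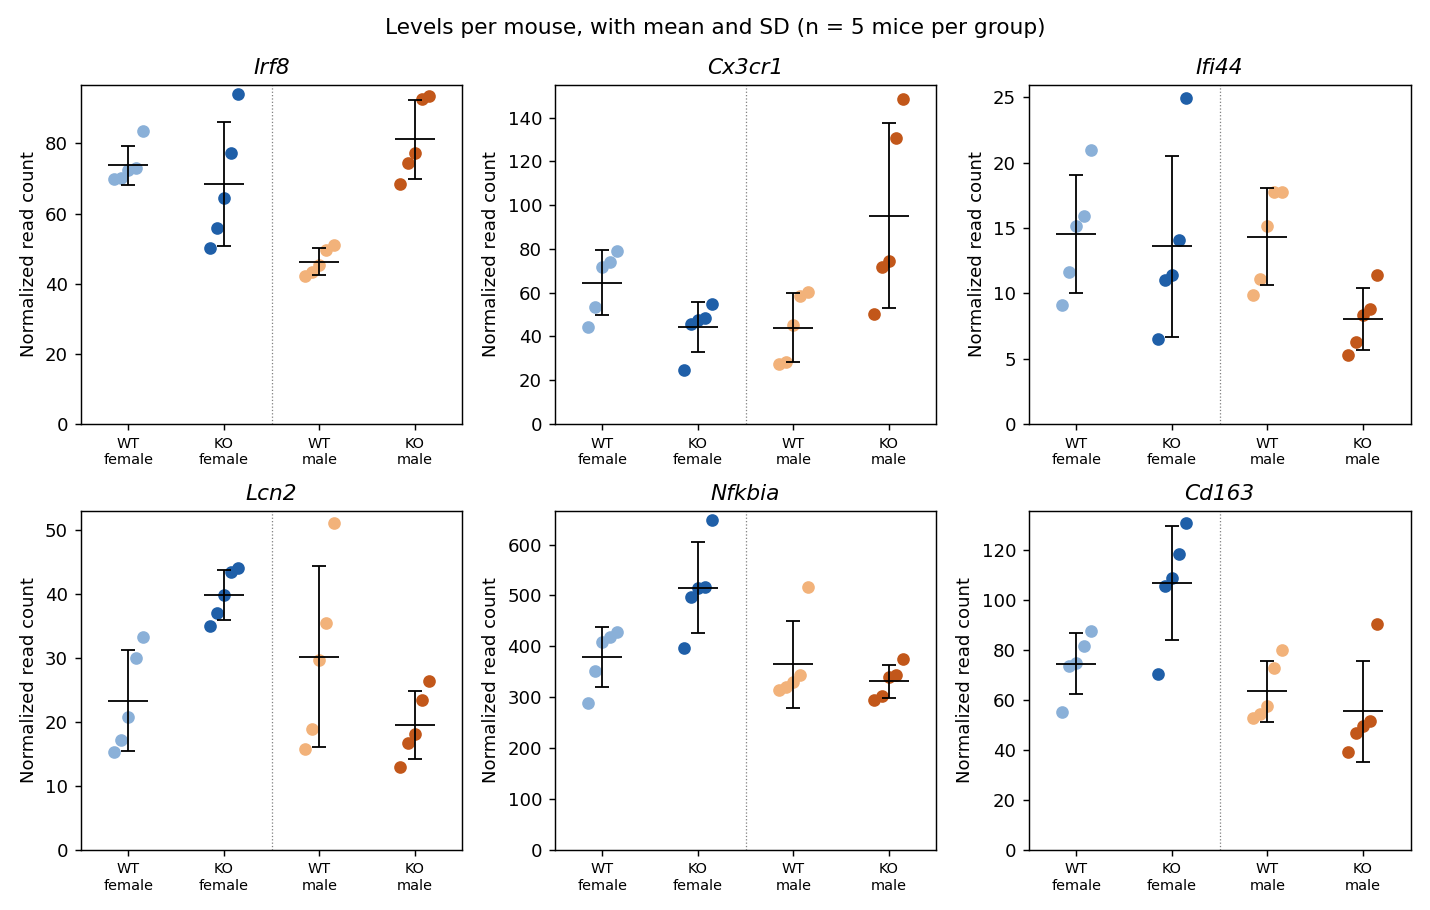
Normalized reads of the 5 genes that passed the test in either sex and of Cd163, per mouse (points), with mean and SD (n = 5 per group). In Irf8 and Lcn2 the knockout and wildtype mice do not overlap in males and in females, respectively. The sexes were scaled in separate tables.

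Irf8 (ENSMUSG00000041515.11, chr8:121463097-121483433 on GRCm39) rose in knockout males. Wildtype males held 42.1, 43.5, 45.4, 49.6 and 51.0 normalized reads, and knockout males 68.3, 74.5, 77.3, 92.7 and 93.4. Every knockout male was above every wildtype male, which held for 6.14% of all genes tested in males. The change was 1.73-fold (log2 0.79 ± 0.11, limma adjusted p = 0.000186), and its adjusted p stayed between 0.000212 and 0.000775 when each mouse was left out in turn. In females the ranges overlapped, with 70.0, 70.3, 72.4, 73.0 and 83.5 in wildtype and 50.2, 55.9, 64.5, 77.2 and 94.1 in knockout mice, and a log2 change of -0.14 ± 0.15 (adjusted p = 0.605). Knockout females spread more widely than wildtype females, by 17.6 against 5.56 (SD).

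The other genes of this role did not pass. Ptprc, which encodes the pan-leukocyte protein CD45, had a log2 change of -0.14 ± 0.17 in females and 0.33 ± 0.16 in males (adjusted p = 0.651 and 0.191). Cd74, the invariant chain of MHC class II, had -0.01 ± 0.20 in females and 0.11 ± 0.20 in males.

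Cx3cr1 (ENSMUSG00000052336.8), the receptor for fractalkine on monocytes and resident macrophages, rose in knockout males. Wildtype males held 27.3, 28.4, 45.5, 58.6 and 60.5 normalized reads, and knockout males 50.2, 72.0, 74.4, 131 and 149. Mice ko_m_127 and ko_m_128 were far above the others, and mouse ko_m_97 lay within the wildtype range. The change was 2.08-fold (log2 1.06 ± 0.29, limma adjusted p = 0.0204). Its adjusted p was 0.0546 without mouse ko_m_127, 0.0515 without mouse ko_m_128 and 0.0519 without mouse wt_m_139.

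In females Cx3cr1 lay the other way without passing the limma test. Wildtype females held 44.3, 53.7, 71.7, 74.2 and 78.9, and knockout females 24.7, 45.5, 47.3, 48.5 and 54.8, with a log2 change of -0.55 ± 0.21 (adjusted p = 0.120). The authors' deposited table gave -0.56 with an adjusted p of 0.00311, by a test that called 21.7% of all genes in females and 23.2% in males. The gene's listed span, chr9:119730682-119898945 on GRCm39, holds 3 other genes on the same strand, Gorasp1, Csrnp1 and Xirp1, and how reads were assigned there is not given in the sources used here. Xirp1, an actin-binding gene of heart muscle, was at 1642 ± 411 in knockout and 1415 ± 185 in wildtype males (log2 change 0.19 ± 0.15, adjusted p = 0.452).

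The monocyte receptor Ccr2 and its ligand Ccl2 did not pass. Ccr2 was low, at 15.6 to 21.5 in the group means, and its log2 change was -0.25 ± 0.19 in females and 0.26 ± 0.30 in males. Ccl2 was at 24.2 ± 1.62 in knockout and 18.4 ± 6.12 in wildtype males (SD, n = 5), with a log2 change of 0.43 ± 0.19 (adjusted p = 0.149). Of the 10 male fits that each left out 1 mouse, Ccl2 passed in 1, without mouse wt_m_124 (adjusted p = 0.0353). The highest adjusted p of these fits was 0.320.

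Ifi44 (ENSMUSG00000028037.14, chr3:151436559-151455597), an interferon-induced gene, fell in knockout males. Wildtype males held 9.91, 11.1, 15.2, 17.8 and 17.8 normalized reads, and knockout males 5.28, 6.27, 8.36, 8.81 and 11.4. Mouse ko_m_128 lay above mice wt_m_125 and wt_m_139, so the groups overlapped. The log2 change was -0.77 ± 0.24 (limma adjusted p = 0.0413). These are few reads, 10 to 44 per mouse over both sets of males. The 2 libraries of mouse ko_m_127 gave 13.7 and 3.07 normalized reads, the lower in the library with the fewest reads in genes. Averaging gave both the same weight, and the part of this library in the call was not tested. On reads summed per mouse the gene no longer passed with edgeR (adjusted p = 0.0984), with DESeq2 (0.114) or with limma after TMM scaling (0.102). It also did not pass in 7 of the 10 fits that each left out 1 mouse. The limma adjusted p was 0.0990 without mouse wt_m_112, the male with Myl7 at 500 or more, and 0.0723 with no filter on low values.

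The other 5 interferon genes did not pass. They are Irf7, which amplifies the response, the ubiquitin-like modifier Isg15, the RNA-binding proteins Ifit1 and Ifit3 and the oligoadenylate synthetase-like gene Oasl2. In males all 6 log2 changes were below 0, between -0.77 and -0.05, with a median of -0.35, beside 50.2% of all genes tested below 0. Irf7 came nearest, at -0.48 ± 0.17 (adjusted p = 0.0714). In females 3 of 6 were below 0, beside 49.7% of all genes tested, and the median was -0.04. Of the 4 genes printed above with an interferon-stimulated response element, Ifit1, Ifit3 and Isg15 did not pass, and Cxcl10 was below the filter and not tested.

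Lcn2 (ENSMUSG00000026822.15, chr2:32274645-32278264), which encodes the iron-binding acute phase protein lipocalin 2, rose in knockout females. Wildtype females held 15.4, 17.2, 20.8, 30.1 and 33.3 normalized reads, and knockout females 35.0, 37.1, 39.9, 43.5 and 44.1. Every knockout female was above every wildtype female, which held for 4.37% of all genes tested in females. The change was 1.75-fold (log2 0.80 ± 0.20, limma adjusted p = 0.0204). Its adjusted p was 0.0516 without mouse ko_f_95, 0.0553 without mouse wt_f_140, 0.0529 without mouse wt_f_141, and 0.0870 without the 3 females with Myl7 at 500 or more.

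In males Lcn2 was at 19.5 ± 5.37 in knockout and 30.2 ± 14.2 in wildtype mice (SD, n = 5), with a log2 change of -0.52 ± 0.28 (adjusted p = 0.234). Mouse wt_m_112 had the highest value, 51.2.

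Nfkbia (ENSMUSG00000021025.9, chr12:55536195-55539432), the inhibitor that NF-kappaB induces against itself, also rose in knockout females. Wildtype females held 289, 351, 408, 418 and 428 normalized reads, and knockout females 397, 496, 516, 517 and 648. Mouse ko_f_150 alone lay within the wildtype range. The change was 1.36-fold (log2 0.44 ± 0.13, limma adjusted p = 0.0467). The call was lost in 9 of the 10 fits that each left out 1 mouse, with adjusted p-values from 0.0537 without mouse wt_f_140 to 0.105 without mouse ko_f_95. Without the 3 females with Myl7 at 500 or more, the adjusted p was 0.154. In males the log2 change was -0.12 ± 0.12. The adhesion molecules Icam1 and Vcam1, through which leukocytes hold to endothelium, had log2 changes of 0.09 ± 0.13 and 0.23 ± 0.15 in females and 0.05 ± 0.12 and 0.13 ± 0.12 in males, and neither passed.

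**Figure D4:**
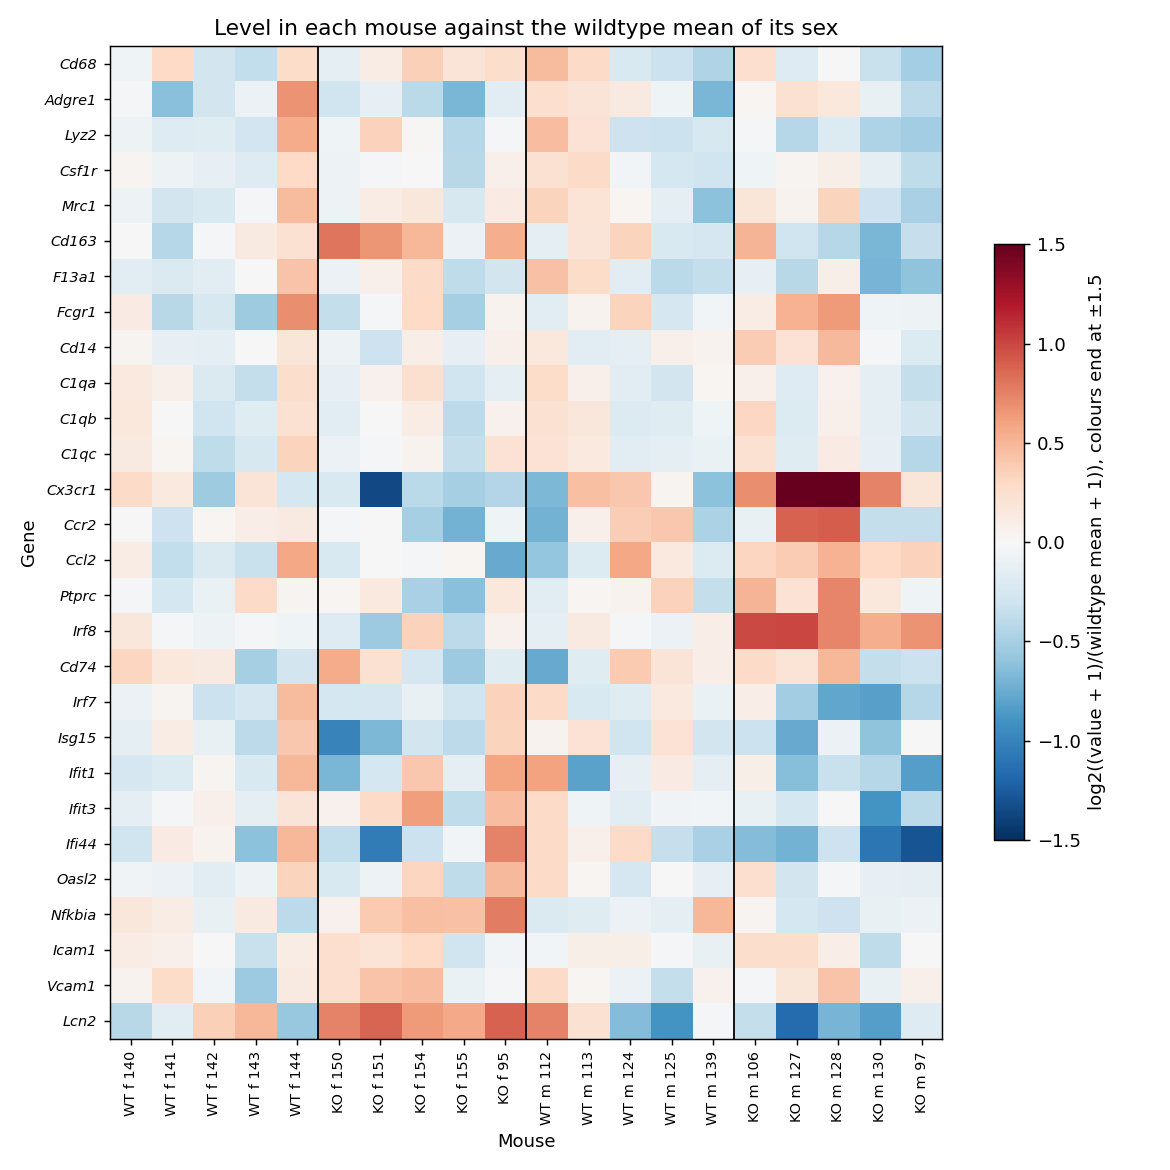
Log2 ratio of each tested gene (rows) in each mouse (columns) to the wildtype mean of the same sex, with 1 added to both. Irf8 is above the wildtype mean in all 5 knockout males, Lcn2 in all 5 knockout females, and mouse wt_f_144 is above it in most macrophage genes.

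The difference between the sexes was tested by subtracting the female knockout change from the male one, in 1 limma fit of the 4 groups. None of the 28 genes tested passed, as 0% of all 12651 genes did. At an unadjusted p under 0.05 there were 6 of the 28, where 8.15% of all genes stood. Irf8 had the smallest p: the change was higher in males by 0.93 ± 0.19 on the log2 scale (p = 5.68e-05, adjusted p = 0.0850). Cx3cr1 followed with 1.61 ± 0.40 (adjusted p = 0.195), then Lcn2 with -1.33 ± 0.37 (0.218), Nfkbia with -0.56 ± 0.19 (0.360), Cd163 with -0.73 ± 0.27 (0.405) and Ifit3 with -0.54 ± 0.24 (0.552).

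edgeR on the recovered reads called none of the 28 either, nor any other gene (0%). DESeq2 called Irf8 (adjusted p = 0.00273) and Cx3cr1 (0.0143), where it called 0.274% of 15335 genes. On simulated counts per mouse, with the same spread for every gene, DESeq2 made more false calls than its threshold allows. There edgeR and limma after TMM scaling did not. The averaged library values used in the main limma test were not simulated. Whether the DESeq2 calls of Irf8 and Cx3cr1 are false was not tested. With limma Irf8 passed in 2 of the 20 fits that each left out 1 mouse, without mouse ko_f_154 (adjusted p = 0.0287) or mouse ko_f_95 (0.0451). The highest adjusted p of these 20 fits was 0.211.

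The levels of Irf8 were also set on 1 scale over all 20 mice, computed by TMM from the recovered reads, a step chosen after the values were seen. Wildtype males were at 50.2 ± 4.19 and wildtype females at 68.7 ± 4.63, knockout males at 89.1 ± 13.1 and knockout females at 63.2 ± 15.8 (SD, n = 5). On this scale wildtype males were the lowest group and knockout males the highest, and no test was made between the sexes.

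Other genes of the same pathways were read from further lists. In the complement list, C1s1 and C1ra, the proteases that C1q activates, rose in both sexes, with log2 changes of 0.79 ± 0.11 and 0.40 ± 0.11 in females and 0.84 ± 0.15 and 0.42 ± 0.13 in males. Cd59a, which blocks the membrane attack complex, fell in both, with -0.28 ± 0.07 and -0.47 ± 0.10. The C1 inhibitor gene Serping1 rose in females, with 0.40 ± 0.12. In all, 3 of 11 tested genes of the list rose and 1 fell in females, and 2 rose and 1 fell in males. Over all genes tested, 5.28% rose and 5.51% fell in females, and 7.6% and 8.29% in males. These shares also stand beside the counts of the lists that follow. The fibroblast markers, cells that also make C1s1 and C1ra, moved beside them: 4 of 8 rose in females and 5 of 8 in males, and their part in the result was not tested.

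Among 23 tested NF-kappaB and acute phase genes in females, 2 rose and 1 fell, and among 22 in males, 3 rose and 1 fell. Tlr4, the endotoxin receptor, rose in both sexes. It was at 192 ± 8.01 in knockout and 119 ± 14.7 in wildtype females and at 181 ± 20.8 and 80.1 ± 8.70 in males (SD, n = 5), with log2 changes of 0.70 ± 0.09 and 1.17 ± 0.10. Tlr2, another pattern receptor, rose in males (0.69 ± 0.15), as did Tnip1, an inhibitor of NF-kappaB signalling (0.25 ± 0.08), and Lrg1, an acute phase glycoprotein, fell (-1.12 ± 0.11). In females the acute phase regulator Cebpd rose (0.74 ± 0.19) and the NF-kappaB subunit Rel fell (-0.68 ± 0.13).

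Of the further macrophage lists, none of 10 resident, 19 general phagocyte and 3 monocyte or scar-associated genes tested passed in females. In males the chemokine Pf4 fell (-0.81 ± 0.16), as the only 1 of 9 tested genes of the resident list to pass. Cd52, a leukocyte surface protein, rose (0.60 ± 0.19), and none of 19 general phagocyte genes passed. Of the other chemokines and cytokines, Cx3cl1, the ligand of Cx3cr1, rose in females (0.56 ± 0.14), and Ccl6 and Cxcl14 fell in males (-0.56 ± 0.12 and -0.54 ± 0.16). Of the other interferon genes, none of 31 passed in females. In males Ifit2 rose (0.34 ± 0.08) and Bst2, a tether of budding virus, and the oligoadenylate synthetase Oas2 fell (-0.44 ± 0.10 and -0.67 ± 0.20), of 30 tested. No gene of the antigen presentation or myeloid growth factor lists passed in either sex.

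Markers of other leukocytes were scarce. Of 12 neutrophil markers, 9 were in the tables and 8 of these had means under 10, and the summed level was 8.55 to 23.3 in knockout and 17.02 to 25.1 in wildtype females, and 11.6 to 16.9 and 12.5 to 38.4 in males. Lcn2 is also a granule gene of neutrophils, and the median of this sum was 10.2 in knockout and 17.8 in wildtype females. The 16 lymphocyte markers summed to 111 to 410 in knockout and 111 to 178 in wildtype females, and to 123.6 to 166 and 102 to 158 in males, with 410 in mouse ko_f_151. Of 12 endothelial markers, 3 fell in females and 4 in males. Of 4 tested adipocyte markers, 2 rose in females. Of 3 tested atrial markers, 1 fell in males. No ventricular cardiomyocyte marker passed. The part of these cell types in the results was not tested.

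The authors' deposited exon tables hold only exon bins whose unadjusted p was 0.05 or less in a test of the bin's share of its gene. They held 7 bins of the 29 genes in females and 8 in males, in 6 genes each. None had an adjusted p under 0.05 in the authors' deposited table, and 2 bins in females and 3 in males had no adjusted p. Of all bins listed, 833 of 15053 in females and 2157 of 23819 in males were under 0.05, so few or none would be looked for among so few bins. The lowest adjusted p was 0.289 for a bin of Oasl2 in females and 0.291 for a bin of Irf7 in males.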

How the data were processed

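RNA was sequenced from left ventricles of 20 mice. Reads were aligned with STAR 2.7.10a to GRCm39 and tested with DESeq2, per the submitters' processing notes. The counting program and annotation release are not given in the sources used here. Each sex has its own deposited gene table, whose unit is a signal: the authors scaled the read counts of a library by its size factor. In every library 100% of values were whole multiples of 1 read at a tolerance of 1e-06, so reads were recovered. The deposited tables also hold the authors' log2 fold changes and p-values, and the deposited exon tables hold counts per exon bin. One column of per-sample values matches no label and was not used, which left 39 of 40 libraries.

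The libraries of a mouse were averaged. Genes with a mean of at least 10 entered a limma 3.58.1 test of log2(value + 1) (R 4.3.3, trended variance, two-sided, threshold 0.05). Fold changes on this scale understate the change of low genes. Since the unit was normalized, edgeR 4.0.16 and DESeq2 1.42.0 on recovered reads, summed per mouse, were alternatives. limma on these summed reads after TMM scaling was another. Further ones were pseudocounts of 0.5 and 5, no filter, a minimum of 50 and the authors' test. Fits also left out each mouse in turn, and mice with Myl7 at 500 or more. Simulated counts per mouse, with the same spread for every gene, were tested over 5 draws with limma after TMM scaling, edgeR and DESeq2. There limma and edgeR kept their false calls near the threshold, and DESeq2 exceeded it. The averaged library values of the main test and the other alternatives were not simulated.

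The members, lists and motifs were chosen with earlier results of these data known. All members are described, those past the threshold in every mouse, and from each other list up to 4 genes with the smallest p in each table. The labels do not say whether the mice were litter mates or how they were bred, and p-values measure the spread between these mice.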

Additional observations from a re-analysis of the deposited data

Results flagged for a closer look

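Within groups of 5 mice, 116 gene and group combinations were checked for a mouse far from the other 4, and 10 had one. Chance gives about 1 in 20. Several are the highest values in mouse wt_f_144, with Lyz2 at 1602, Mrc1 at 420 and Oasl2 at 74.5 normalized reads. The highest of its group was also Cd163 at 90.5 in mouse ko_m_106, Irf8 at 83.5 in mouse wt_f_140, Irf7 at 57.0 in mouse ko_f_95, Ifit3 at 47.5 in mouse wt_m_112 and Nfkbia at 517 in mouse wt_m_139. The lowest of its group was Icam1 at 75.4 in mouse wt_f_143 and Cxcl10 at 0 in mouse wt_m_113. Cxcl10 was below the filter in every comparison.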

How the results depend on the processing

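The number of genes called in females, 2 as reported, was 1 with no filter, 1 with a minimum mean of 50, 3 with DESeq2, which added Cd163, 4 in the authors' deposited test, 0 without the mice with Myl7 at 500 or more, and 0 to 2 when each mouse was left out. In males, 3 as reported, it was 7 in the authors' deposited test, which added Irf7, Lyz2, Lcn2 and Ptprc, and 1 to 3 when each mouse was left out, with 1 without mouse ko_m_127. It was 2, Cx3cr1 and Irf8, with no filter, a minimum mean of 50, edgeR, DESeq2 or TMM scaling. The same 2 genes passed without mice with Myl7 at 500 or more. For the difference between the sexes, 0 as reported, it was 2 with DESeq2 and 0 to 1 when each mouse was left out. No called change reversed under any alternative run. Of 1120 single-gene values from leaving out 1 mouse, 22 lost and 6 gained a call. Of 697 from the other alternatives, 8 lost and 9 gained one. Irf8 in males passed in every alternative run. With the minimum mean of 50, Lcn2 and Ifi44 were not tested. The cause of the other changes was not tested. Over all genes edgeR called 657 up and 674 down in females and 1017 and 1042 in males, beside 675, 704, 950 and 1037 here. The authors' deposited test called 1820, 1784, 1901 and 2085, and whether it took libraries or mice as its unit is not given in the sources used here. Ifi44, Ccr2, Ccl2, Isg15 and Fcgr1 rest on few reads. No paired analysis was possible because the groups compared share no mouse numbers.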
